A study of Mus musculus with 267 samples.

Results

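Egr1, Egr3, Nab1 and Nab2 were 4 of the 55450 genes of the mm10 annotation (GENCODE vM21), and their chromatin was followed in bone marrow-derived macrophages (BMDMs) that responded to interleukin-4 (IL-4). They were chosen by name, as the EGR family members beside Egr2 together with the 2 NAB corepressors, and not by any measured value. A region belonged to a gene when its centre lay within 50 kb of the gene's start, which gave 333 of 423610 rows in 9 tables of sequencing tags and 1386 of 1958714 peaks in 54 peak lists. Egr1 is on chromosome 18 (34859823 to 34864984, plus strand) and Egr3 on chromosome 14 (70077203 to 70082614, plus strand). Nab1 is on chromosome 1 (52457294 to 52500679, minus strand) and Nab2 on chromosome 10 (127660918 to 127668568, minus strand). Positions are given below in kb from the start of the gene, with downstream positive.

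Chromatin immunoprecipitation with sequencing (ChIP-seq), a map of the DNA held by a given protein or histone mark, was performed on BMDMs grown for 7 days with macrophage colony-stimulating factor and then left untreated (basal) or given 20 ng/mL of IL-4. The strain groups were SPRET/EiJ, from a wild-derived line of another mouse species (SPRET), PWK/PhJ, also wild-derived (PWK), NOD/ShiLtJ (NOD), BALB/cJ (BALB) and C57BL/6J (C57), each basal and after 24 h of IL-4, and C57 was also taken at 1 and 6 h. The genotype groups were Egr2flfl and LyzMCreEgr2flfl, each basal and after 24 h. Mice were female and 8 to 12 weeks old, per the study's methods. All mice of the genotype groups carried floxed Egr2 alleles, and LyzMCreEgr2flfl mice carried in addition a Cre recombinase driven from the LyzM locus, which is active in myeloid cells and so reaches only cells in which that locus was on. The strain of the genotype groups was not given in the sources used here. Whether replicates came from separate animals was not stated for each library, so p-values measure the spread between libraries, part of which may be technical.

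EGR proteins are zinc finger transcription factors that bind a short GC-rich element and are switched on quickly and briefly by growth factors, cytokines and stress. Egr1 is the classic immediate-early gene of the family, and Egr3 acts beside Egr2 in lymphocytes. Egr2 is needed for nerve myelination and takes part in the macrophage response to IL-4. NAB1 and NAB2 have no DNA-binding domain of their own. They bind the inhibitory domain of EGR proteins, recruit the NuRD chromatin remodelling complex and hold down EGR targets, and NAB2 is itself a known EGR target, which closes a feedback loop. H3K27ac marks active enhancers and promoters, H3K4me2 marks both kinds of element, H3K4me3 marks promoters, and RNA polymerase II (Pol II) marks sites of transcription. STAT6 is the factor that IL-4 activates directly, PPARg is a nuclear receptor of alternatively activated macrophages, and PU1 and CEBPb are factors that establish the macrophage state.

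The 155 libraries of the tables held 4691644 to 29050468 tags each (median 12936233), and values are given as normalized tags, the tags in a region scaled to a library of 10000000. In basal C57 BMDMs all 7 macrophage markers had H3K27ac at their starts (189.6 to 1294 normalized tags, against a median of 84.2 over 15714 gene starts). Of the markers of other cells, the start region of 1 of 3 neutrophil genes had 37.4, and those of B cells, erythroid cells and fibroblasts had at most 3.82. No start region of a T cell or endothelial marker was in the table. In a bulk sample, fewer cells with a mark and less of the mark in each cell cannot be told apart. Fewer of the H3K27ac tags lay inside the tabulated regions after IL-4, 38.2% and 43.2% at 24 h against 59.6% and 65.4% basally in C57, and 28.7% in 1 BALB library at 24 h against 51.2% to 58.6% in the others.

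EGR2 itself bound at all 4 genes, and its signal at the 2 corepressor genes was among the highest of all its sites. In the C57 time course of EGR2, which held 30675 sites in 8 libraries, the site at +1.6 kb in Nab2 had the 5th highest mean (798.6 normalized tags), the site at +0.1 kb in Nab1 the 14th (639.1) and a second Nab2 site at +0.7 kb the 19th (607.2). The Nab2 site at +1.6 kb lies beside the start of the protein-coding gene Nemp1, at +1.7 kb, so it may belong to Nemp1 as well as to Nab2. The highest Egr1 site, at +0.8 kb, was 368th (247.9), and the highest Egr3 site, at -2.1 kb, was 602nd (208.4). Per base of site the 3 corepressor sites were still 14th, 18th and 13th. The sequences under these sites are printed below because EGR factors read DNA directly and because these are the sites the ranking rests on. Capitals mark the letters GCGTGGGCG, the preferred EGR element, or its core GTGGGCG, each searched on both strands, so that a match on the minus strand reads CGCCCACGC or CGCCCAC. The full element was found in 420 of the 30675 central 200-base windows of EGR2 sites (1.37%) and in 201 of 32851 RefSeq promoters of 300 bases (0.612%), and the core in 12.02% and 7.97%. A match is a description of letters and not proof of a bound element.

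The Nab1 site held 2 matches, one on each strand, in the 5′ untranslated exon of the gene, and 29 bases around each are shown (mm10, plus strand, chr1:52500539-52500567 and chr1:52500571-52500599). The other windows are the central 200 bases of their sites: Nab2 +1.6 kb at chr10:127666857-127667056, Nab2 +0.7 kb at chr10:127667749-127667948, Egr3 -2.1 kb at chr14:70075011-70075210 and Egr3 -1.5 kb at chr14:70075586-70075785.
Nab1 +0.1 kb, minus-strand match: ctccggctccCGCCCACGCgcggccgagt
Nab1 +0.1 kb, plus-strand match: gcagatcccgGCGTGGGCGgccgcggggc
Nab2 +1.6 kb: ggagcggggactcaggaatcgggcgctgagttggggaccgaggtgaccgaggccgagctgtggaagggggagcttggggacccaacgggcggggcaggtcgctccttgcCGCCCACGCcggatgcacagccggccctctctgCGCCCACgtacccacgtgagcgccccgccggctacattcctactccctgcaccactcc
Nab2 +0.7 kb: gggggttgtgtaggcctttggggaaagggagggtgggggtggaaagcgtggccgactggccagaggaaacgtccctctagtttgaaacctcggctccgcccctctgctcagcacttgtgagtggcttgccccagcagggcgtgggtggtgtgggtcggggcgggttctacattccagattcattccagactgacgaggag
Egr3 -2.1 kb: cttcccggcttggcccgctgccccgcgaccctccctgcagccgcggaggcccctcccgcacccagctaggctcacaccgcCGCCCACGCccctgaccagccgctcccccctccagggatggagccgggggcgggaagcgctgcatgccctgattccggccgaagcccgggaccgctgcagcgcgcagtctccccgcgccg
Egr3 -1.5 kb: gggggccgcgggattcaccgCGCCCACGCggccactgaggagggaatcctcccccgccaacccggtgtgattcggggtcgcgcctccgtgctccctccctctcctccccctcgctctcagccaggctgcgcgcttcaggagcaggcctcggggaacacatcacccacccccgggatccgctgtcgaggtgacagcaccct
The Nab2 window at +1.6 kb held 1 full element and 1 further core, both on the minus strand and inside an annotated exon of the neighbouring gene Nemp1, and the window at +0.7 kb held neither. The 2 Egr3 windows held 1 full element each. Over all their sites, the full element was in 1 of 6 windows of Nab1, 1 of 15 of Nab2, 2 of 10 of Egr3 and 0 of 8 of Egr1. The letters GCGGGGGCG, searched on both strands after seeing the data, were in 3 of 8 windows of Egr1, 1 of 6 of Nab1, 1 of 15 of Nab2 and 0 of 10 of Egr3, against 4.20% of all windows and 2.91% of the promoters. The RefSeq promoter of Nab1 (GRCm38.p6, chr1:52500399-52500698) held both of the matches shown, and that of Nab2 (chr10:127666654-127666953) held none. The full element of the Nab2 +1.6 kb window, at chr10:127666966-127666974, lies just outside that Nab2 promoter.

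EGR2 occupancy varied widely between replicates of a time. At Nab1 +0.1 kb it was 324.1 and 1436 normalized tags basally, 378.4 and 491.9 at 1 h, 565.6 and 360.6 at 6 h, and 576.8 and 980.2 at 24 h. The basal pair spanned the whole range of the later times. At Nab2 +1.6 kb the libraries held 505.8 and 1039 basally, 450.7 and 717.5 at 1 h, 1262 and 917.8 at 6 h, and 854.1 and 641.3 at 24 h. The basal values again overlapped all later times. At Egr1 +0.8 kb they held 134.4 and 264.6 basally, 103.0 and 136.0 at 1 h, 223.5 and 193.0 at 6 h, and 575.9 and 353.3 at 24 h. Both 24 h libraries of Egr1 exceeded the other 6, with a log2 fold of 1.25 ± 0.62 (SE, n = 2) against basal and an adjusted p of 0.84 (limma). The median site of the table was 0.66 higher at 24 h on the same scale. At Egr3 -2.1 kb the values were 177.0 and 227.0 basally, 65.0 and 163.0 at 1 h, 200.8 and 233.8 at 6 h, and 326.8 and 273.6 at 24 h, the 24 h pair being the highest. None of the 39 member sites was called by limma at any time, and none of the 30675 sites was, although 1085, 1169 and 1038 of them had an unadjusted p under 0.05 at 1, 6 and 24 h. On whole reads, edgeR called 0, 3 and 4 sites of the table and DESeq2 0, 31 and 28.

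The peak lists, which hold the reproducible peaks of a group of libraries and give each a height, also placed the corepressor genes first in all 5 strains, with the exception of 2 C57 lists for Nab1. The highest EGR2 peak within 50 kb of Nab1 ranked between 1st and 7th of its list in 10 of 12 lists. The exceptions were C57 at 6 h, where it ranked 182nd of 13072, and C57 basal, where the peak at the start was missing from the list and only a peak at +29.4 kb was present, 7535th of 8437. The tags at that start in basal C57 were high in both libraries but differed between them, as given above. The highest Nab2 peak ranked between 2nd and 33rd in the 12 lists. For Egr3 the ranks ran from 276 to 873 (median 383.5), always with a peak 1.7 to 2.2 kb upstream of the start and never within 1 kb of it. For Egr1 they ran from 70 to 1333 (median 520).

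**Figure D1:**
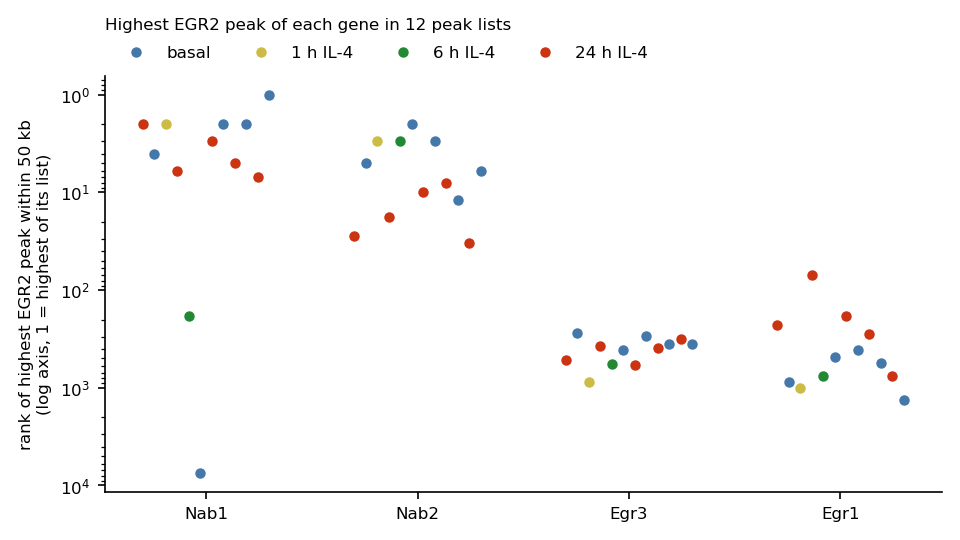
Each point is an EGR2 peak list (12 per gene, coloured by hours of IL-4), and the log axis gives the rank of the highest peak within 50 kb of the gene, with 1 at the top. Nab1 and Nab2 sit near the top in all but 2 lists of Nab1, and Egr3 and Egr1 lie between 70 and 1333.

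In each strain the highest Egr1 peak ranked better after 24 h of IL-4 than basally. The ranks were 878 and 228 in BALB, 488 and 70 in C57, 552 and 279 in PWK, 413 and 183 in NOD, and 1333 and 762 in SPRET, basal first. In SPRET the basal peak was another one, at +27.6 kb, and in the other lists it lay at +0.7 or +0.8 kb. Ranks for Nab2 ran the other way between the same lists, from 5 to 28 in BALB, 2 to 18 in C57, 3 to 10 in NOD and 6 to 33 in SPRET, with 12 and 8 in PWK. With 1 list for each strain and time these ranks have no replicate check, and the lists differ in length from 6201 to 39458 peaks.

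Other factors also had peaks near the 4 genes. PU1 had a peak within 1 kb of the start of Egr1, Nab1 and Nab2 in 10 of 10 lists and of Egr3 in 9 of 10. STAT6 had one within 1 kb in 5 of 12 lists at Egr1, 1 at Egr3, 5 at Nab1 and 7 at Nab2, whereas EGR2 had one in 12, 0, 11 and 12. CEBPb peaks were within 1 kb of the Nab1 start in 10 of 10 lists and of the Egr3 start in none. PPARg had a peak within 1 kb of Egr1 in 9 of 10 lists and of Nab2 in 3, and none at Egr3 or Nab1.

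For each gene 2 regions were followed, the one at the start and the distal region with the highest mean H3K27ac over the 8 libraries of the C57 time course that lay more than 1 kb from every annotated start. As 6 of these libraries were treated with IL-4, a higher value after IL-4 at a distal region is not independent of the choice. Chosen on the 2 basal libraries alone, which was tried after seeing the data, the distal regions of Egr3, Nab1 and Nab2 were the same and that of Egr1 lay at -3.4 kb, with an average of 65.9 normalized tags basally and 14.6 at 24 h against 59.3 and 221.7 at the region used. The distal region of Egr1 lay at +25.1 kb in intergenic DNA (chr18:34884466-34885466). That of Egr3 lay at -20.8 kb (chr14:70055866-70056866), 1001 bp from the start of the antisense gene Gm33524 and in the last intron of the transcript NM_028560. That of Nab1 lay at +29.4 kb in its own intron 4 of 7 (chr1:52470740-52471740). That of Nab2 lay at +36.5 kb in intergenic DNA (chr10:127631595-127632595), with the start of Stat6 10891 bp away and that of Lrp1 about as near on the other side, so this region may belong to either of those genes as well as to Nab2. Such regions in another strain are those with a centre within 500 bp. The 5 strain tables were normalized separately, so their levels are given side by side and differences between strains were not tested.

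After IL-4, the rows near Egr3 and Nab2 with the larger differences in H3K27ac were mostly lower, those near Nab1 were higher, and those near Egr1 went both ways. By a rule of size (group means 2.5-fold or more apart, 1 of them 16 normalized tags or more), 17 of the 231 member rows of the 5 strains were higher and 36 lower at 24 h. Some rows overlap their neighbours and the same places recur between strains, so rows counted here and below are not separate observations. Rows near Nab1 were higher in 7 cases and lower in none, with no such row in PWK and a median log2 fold of -0.51 over the 5 Nab1 rows in C57, and rows near Nab2 were lower in 10 and higher in none. In C57 and NOD the higher Nab1 rows were the distal region and the row overlapping it at +30.3 kb. The lower Nab2 rows lay at +33.3, +36.5, +47.5 and +48.4 kb in C57 and at +33.3 and +36.5 kb in NOD. All of these were nearer the start of Lrp1 or the pseudogene Gm48815 than that of Nab2. Rows near Egr3 were lower in 19 and higher in 1, and rows near Egr1 were higher in 9 and lower in 7. In C57, 7 of 52 member rows were higher and 13 lower, against 3.46% and 7.55% of all 67742 rows. In BALB, 4 of 43 were higher and 8 lower (2.84% and 5.13% of all rows), and in NOD 4 of 52 were higher and 8 lower (3.24% and 5.14%). PWK had 0 of 39 higher and 7 lower (3.10% and 3.01%), of which 5 were near Egr3. SPRET had 2 of 45 higher and none lower (2.64% and 0.939%). The median log2 fold of member rows was -0.27 in SPRET, -0.68 in PWK, -0.73 in NOD, -0.83 in C57 and -0.82 in BALB. Over all rows it was -0.09, -0.18, -0.20, -0.28 and -0.30 in the same order, and over rows with a mean of at least 16 normalized tags -0.16, -0.27, -0.39, -0.63 and -0.43. With 2 libraries per group the tests of single rows were weak. Groups this small can also lie apart by chance. The share of all rows with groups apart is not given here, so statements below that groups were apart are descriptions. Limma called 3 member rows lower, all in BALB, and 75 of the 231 (32.5%) had an unadjusted p under 0.05, against 14.05% of all rows of the 5 tables. In C57 it called none of the 67742 rows, although 14904 had an unadjusted p under 0.05. Scaling each library by the median ratio over all rows, in place of its total, moved the median row by 0.08, 0.20, 0.21, 0.31 and 0.32 in the order above. Relative log2 folds below are therefore given less the median of the table.

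At Egr1, H3K27ac was higher after IL-4 in the distal region at +25.1 kb and lower at -3.4 kb. In C57 the distal region had 91.6 and 27.8 normalized tags basally and 240.2 and 194.3 at 24 h (relative log2 fold 2.35). In BALB it had 106.5 and 37.5 basally and 231.9 and 105.8 at 24 h (1.60), and in NOD 117.2 and 47.6 and then 266.9 and 180.7 (1.74). The groups were apart in C57 and NOD and overlapped in BALB, and the adjusted p was 0.14, 0.49 and 0.31 in C57, BALB and NOD (limma). PWK and SPRET had no row within 500 bp of it, and their nearest rows, from +26.3 to +29.2 kb, held at most 28.2 in any library. The region at -3.4 kb had 71.2 and 59.2 basally and 12.73 and 16.4 at 24 h in C57 (relative log2 fold -1.81), 116.4 and 50.01 and then 35.4 and 20.8 in NOD (-1.26), and 45.6 and 33.4 and then 13.6 and 7.62 in BALB (-1.53). In PWK it had 91.0 and 25.8 and then 20.9 and 7.64, and in SPRET 53.9 and 25.02 and then 23.8 and 7.54. Both treated libraries were below both basal ones there in all 5 strains, with a call in BALB alone. The Egr1 start had 34.6 and 23.5 basally and 21.2 and 20.4 at 24 h in C57, 32.3 and 20.9 and then 23.3 and 12.9 in BALB, and 110.6 and 34.1 and then 43.4 and 20.8 in NOD. PWK had 80.7 and 35.2 and then 57.9 and 19.1 there, and SPRET 46.2 and 25.02 and then 51.1 and 20.5. Basal and treated values at the start overlapped in every strain but C57, and no strain had a call. After IL-4 the start held less than the +25.1 kb region in the 3 strains with both. Nearby rows could hold more, as at +0.8 kb in NOD with 300.9 and 71.4 basally and 86.1 and 59.7 at 24 h.

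Pol II at the distal region of Egr1 was higher on average after IL-4 too. It was 24.9, 8.90 and 4.38 normalized tags basally and 53.3 and 39.7 at 24 h in BALB, and 28.6 and 12.3 and then 49.2 and 46.6 in NOD. All treated libraries of these 2 strains exceeded the basal ones, with a log2 fold of 2.08 ± 0.65 (SE, n = 3 and 2) and an adjusted p of 0.115 in BALB. In C57 it was 28.1, 32.9, 9.65 and 7.09 basally and 68.0, 48.2 and 28.2 at 24 h, so the lowest treated library lay within the basal range (log2 fold 1.44, adjusted p 0.34). Within the 3 pairs of the same replicate number the treated library was the higher one each time, and the fit with the number as a block gave 1.08 ± 0.36 (adjusted p 0.22).

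**Figure D2:**
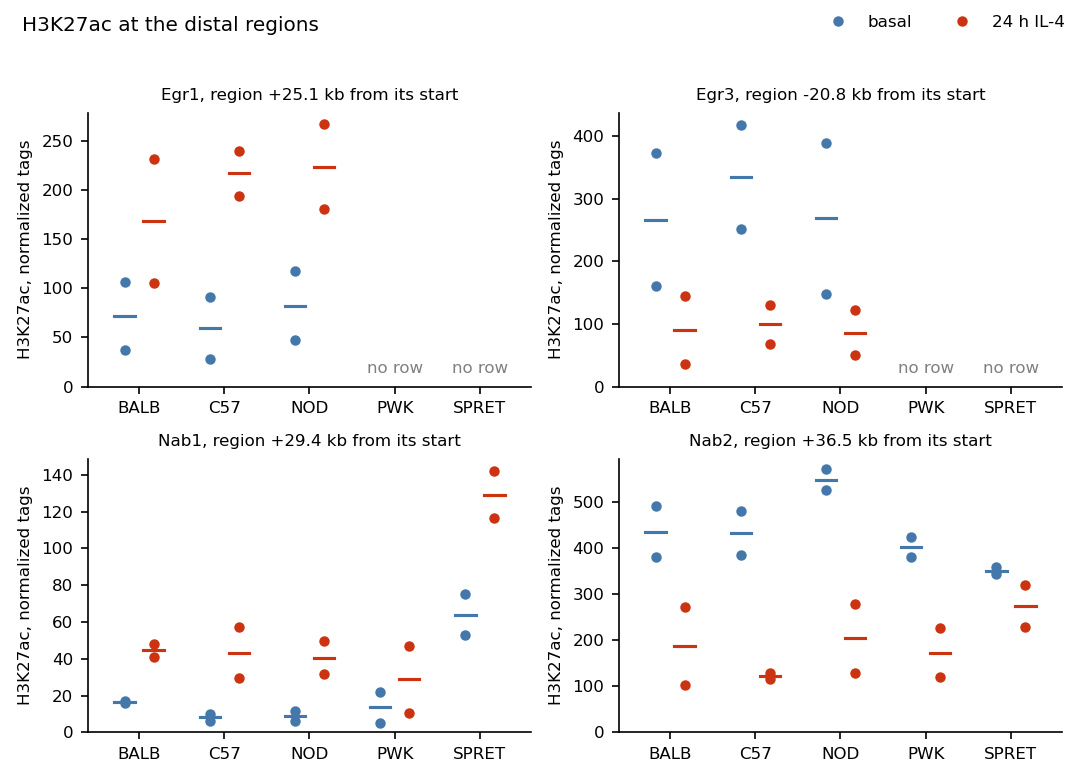
H3K27ac in normalized tags at the distal region of each gene, by strain, with a point per library and a bar at the group mean (blue basal, red 24 h of IL-4, n = 2 each). The Egr1 and Nab1 panels show treated means above basal ones and the Egr3 and Nab2 panels the reverse, with the groups closest in proportion at Nab2 in SPRET (351 and 274.7 on average).

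Egr3 had almost no H3K27ac at its start, and upstream the mark was lower after IL-4 in C57, BALB, NOD and PWK, in PWK at another row. The start held 0.00 to 14.99 normalized tags in every H3K27ac library of the strains and the time course, while H3K4me2 there was 48.9 to 182.3 and H3K4me3 27.8 to 180.9. The distal region in C57 had 417.9 and 251.7 basally and 130.7 and 67.6 at 24 h (relative log2 fold -1.49). In BALB it had 373.3 and 159.7 and then 144.6 and 36.7 (-1.42), and in NOD 389.0 and 147.6 and then 122.2 and 49.5 (-1.41). Both treated libraries lay under both basal ones in all 3 strains, and the adjusted p was 0.13, 0.28 and 0.34 in C57, BALB and NOD (limma). PWK and SPRET had no row within 500 bp of that centre, and their rows at -20.0 kb are given instead. PWK had 401.7 and 414.2 there basally and 245.8 and 161.3 at 24 h, apart and lower. SPRET had 384.7 and 323.3 and then 449.6 and 256.3, with the treated libraries on either side of the basal ones. Whether the strains differ was not tested.

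Nab1 showed H3K27ac at both regions. The start had 295.8 and 145.5 normalized tags basally and 155.3 and 129.9 at 24 h in C57, 274.1 and 132.3 and then 495.5 and 127.2 in BALB, and 161.3 and 111.9 and then 290.8 and 174.5 in NOD. In PWK it had 327.9 and 247.4 and then 291.6 and 221.4, and in SPRET 400.9 and 434.6 and then 419.6 and 216.5. Only in NOD were the treated libraries clear of the basal ones, above them, and no strain had a call there. The distal region in intron 4 had far less, with higher means after IL-4. It had 10.2 and 6.42 basally and 29.7 and 57.1 at 24 h in C57 (relative log2 fold 2.5), 16.2 and 17.3 and then 48.2 and 41.0 in BALB (1.66), and 11.6 and 6.35 and then 31.8 and 49.5 in NOD (2.28). In PWK it had 5.15 and 21.9 and then 10.8 and 46.8 (1.18), and in SPRET 53.0 and 75.1 and then 141.9 and 116.3 (1.10). The groups overlapped in PWK alone. The adjusted p was 0.13 in C57 and 0.26 in BALB, 0.24 in NOD, 0.22 in SPRET and 0.73 in PWK (limma). An EGR2 peak overlapped this region in 10 of 12 lists and a STAT6 peak in 9 of 12, and no CEBPb peak did in 10.

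Nab2 had less H3K27ac after IL-4 at the row nearest its annotated start and at its distal region. The start had 555.6 and 426.4 normalized tags basally and 241.1 and 256.6 at 24 h in C57, 403.4 and 364.0 and then 301.2 and 183.9 in BALB, and 220.3 and 266.7 and then 136.7 and 193.6 in NOD. In PWK it had 321.0 and 437.7 and then 277.4 and 282.5, and in SPRET 318.0 and 409.6 and then 269.8 and 315.5. Both treated libraries were below both basal ones in all 5 strains, by a relative log2 fold between -0.68 (C57) and -0.22 (SPRET), and none passed the test. The RefSeq promoter of Nab2 lies further downstream, beside Nemp1, and was not the row read here. At the row over that promoter C57 had 436.2 and 463.5 basally and 199.5 and 345.9 at 24 h, apart and lower. NOD had 314.2 and 381.8 and then 256.1 and 377.7 there, which overlap. The other strains are not given for it. The distal region had 481.0 and 385.1 and then 129.0 and 116.2 in C57 (-1.52), 490.9 and 380.1 and then 272.6 and 102.4 in BALB (-1.06), and 571.0 and 526.3 and then 279.2 and 129.4 in NOD (-1.32). In PWK it had 424.0 and 379.8 and then 227.6 and 119.3 (-1.10), and in SPRET 343.7 and 358.9 and then 320.0 and 229.4 (-0.29). The groups were again apart in all 5 strains, and the adjusted p ran from 0.11 in C57 to 0.76 in SPRET (limma). STAT6 had a peak over this region in 12 of 12 lists, EGR2 in 11 of 12, PU1 in 10 of 10, CEBPb in 9 of 10 and PPARg in 8 of 10.

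The 3 member rows that limma called for H3K27ac were all in BALB and all lower, against 0.653% of the 54022 rows. Nab2 +33.3 kb had 164.6 and 222.8 normalized tags basally and 49.0 and 25.7 at 24 h (log2 fold -2.40, adjusted p 0.032). Nab2 +39.8 kb had 60.3 and 83.4 and then 21.1 and 12.9 (-2.04, adjusted p 0.033), and Egr1 -3.4 kb had 45.6 and 33.4 and then 13.6 and 7.62 (-1.84, adjusted p 0.048). Each call was lost without the second treated library or without either basal library. With 1 library left out the relative log2 fold lay between -2.43 and -1.74 at Nab2 +33.3 kb, between -2.08 and -1.37 at Nab2 +39.8 kb and between -1.62 and -1.43 at Egr1 -3.4 kb. EdgeR called none of the 3. The second treated library is the one with 28.7% of its tags inside the regions, and its part in these calls was not tested.

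Pol II was called lower at rows near Egr3 and Nab2. Of the 231 member rows, 4 were higher and 19 lower by the 2.5-fold rule, here from 8 normalized tags, and 56 (24.2%) had an unadjusted p under 0.05, against 9.72% of all rows. In NOD 0 of 52 were higher and 8 lower (2.35% and 1.25% of all rows), and in C57 1 of 52 was higher and 6 lower (1.57% and 1.66%). PWK had 0 of 39 higher and 4 lower (2.66% and 0.932%), BALB 3 of 43 higher and 1 lower (5.91% and 0.929%), and SPRET none of 45 either way (1.54% and 0.805%). Of the lower rows 10 were near Egr3, 5 near Egr1 and 4 near Nab2. Limma called 4 of 39 member rows lower in PWK, against 0.281% of all rows, and 1 of 52 in C57, against 0.0960%. In PWK, Nab2 +36.5 kb had 100.9, 112.6 and 115.2 normalized tags basally and 43.1, 44.2 and 53.9 at 24 h (log2 fold -1.21, adjusted p 0.028). Nab2 +33.3 kb had 34.6, 24.5 and 38.6 and then 7.91, 10.8 and 6.84 (-1.82, adjusted p 0.023). The highest treated library was below the lowest basal one at both. Egr3 -2.2 kb had 76.2, 63.7 and 53.0 and then 20.9, 31.3 and 26.5 (-1.27, adjusted p 0.047), and Egr3 -1.4 kb had 40.9, 37.8 and 35.6 and then 5.75, 10.8 and 19.7 (-1.73, adjusted p 0.049). These groups were also apart. Without a single library, whichever it was, the first 3 of these calls were lost, and Egr3 -1.4 kb was called only without the third treated library. The relative log2 folds then lay between -1.27 and -1.08 at Nab2 +36.5 kb, -2.01 and -1.59 at Nab2 +33.3 kb, -1.43 and -1.06 at Egr3 -2.2 kb and -2.10 and -1.26 at Egr3 -1.4 kb.

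Libraries with the same replicate number deviated together in the Pol II comparisons of C57, PWK and SPRET, and a fit with that number as a block changed their calls. Same-numbered libraries also deviated together for H3K27ac in every strain (r 0.507 in SPRET to 0.729 in C57). So did those of Pol II in NOD (0.561) and BALB (0.39 to 0.464). The H3K27ac values above were read without that pairing, so their overlaps and missing calls hold for the unpaired reading only. With a block more member rows were called for H3K27ac, and their number is given at the end. In PWK the 4 calls stayed, with adjusted p from 3.89e-06 to 0.000107, and 6 more Egr3 rows between -22.8 and +19.2 kb were called lower, which made 10 of 39 against 3.82% of all rows. Among the 45 member rows of SPRET, which had no call without it, Nab2 +47.5 kb (log2 fold -0.65) and Nab2 +46.9 kb (-0.60) were called lower and Egr3 +29.9 kb (0.81) higher, against 4.83% and 3.56% of all rows. Neither number exceeds its share of all rows. The Nab2 rows overlap each other and lie at the start of Lrp1, at +47.4 kb. In C57 the blocked fit called Nab2 +36.5 kb lower (-1.44 ± 0.28, adjusted p 0.035), against 0.394% of all rows, and no longer the row at Egr3 -0.4 kb.

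The C57 row at Egr3 -0.4 kb had 6.86, 12.84, 15.01 and 12.15 normalized tags of Pol II basally and 2.67, 0.91 and 0.00 at 24 h (log2 fold -2.68, adjusted p 0.050 before rounding under the threshold), so all treated libraries were below all basal ones. It was called without only 1 of the 7 libraries, basal replicate 1, with a relative log2 fold between -3.09 and -2.27 over the 7. Nab2 +36.5 kb in C57 had 89.2, 97.1, 108.3 and 101.3 basally and 26.7, 41.0 and 41.0 at 24 h (log2 fold -1.448, adjusted p 0.070), again with no overlap. In SPRET it had 119.0, 105.1 and 120.7 and then 93.8, 76.3 and 80.3 (-0.46, adjusted p 0.37). In NOD it had 124.6 and 95.9 and then 69.5 and 56.7, and in BALB 129.7, 135.2 and 58.0 and then 68.2 and 52.4. The groups overlapped in BALB alone. At the region 1.3 to 1.4 kb upstream of Egr3, C57 had 38.7, 37.7, 19.3 and 22.3 and then 8.67, 10.0 and 6.41 (-1.66, adjusted p 0.115), and NOD 35.04 and 10.96 and then 7.35 and 4.05. SPRET had 37.7, 22.8 and 21.6 and then 33.8, 14.8 and 21.2, and BALB 13.4, 14.2 and 14.2 and then 44.8 and 3.97, both with overlapping groups.

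**Figure D3:**
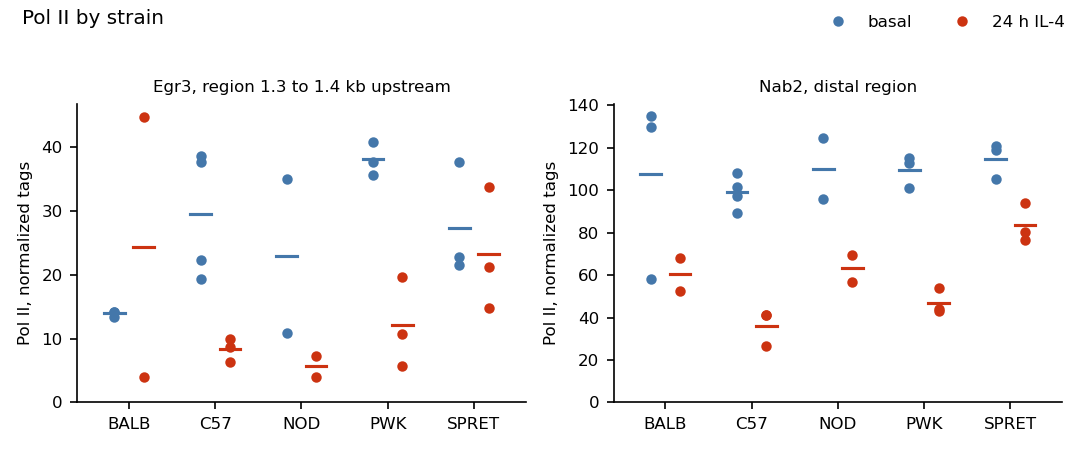
Pol II in normalized tags at the region 1.3 to 1.4 kb upstream of Egr3 (left) and at Nab2 +36.5 kb (right), by strain, with a point per library and a bar at the group mean (blue basal, red 24 h of IL-4). The treated points lie below all basal points at both regions in C57, NOD and PWK, and the groups overlap in BALB at both.

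At the starts themselves, Pol II in C57 was highest at Nab2 and lowest at Egr3. The Nab2 start had 177.8, 181.3, 207.4 and 166.1 normalized tags basally and 84.7, 191.1 and 148.8 at 24 h in C57, and the Nab1 start 40.6, 166.1, 104.0 and 47.6 and then 44.7, 91.5 and 41.0. The Egr1 start had 51.2, 63.4, 15.5 and 22.3 and then 34.7, 25.9 and 12.8. Basal and treated libraries overlapped at these 3. The Egr3 start had 4.99, 6.42, 11.8 and 6.08 and then 2.67, 1.82 and 0.00, which do not overlap, and no start region was called in any strain, except with the replicate block that of Egr3 in PWK, lower (-1.35, adjusted p 0.0089). These regions have the same length of 1000 bp, so the tags compare per length, although the position of the region against the start differs by up to 0.8 kb.

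H3K4me3 showed no change that passed the test. None of the 231 member rows was called by limma and none passed the 2.5-fold rule, while 29 (12.6%) had an unadjusted p under 0.05, against 8.70% of all rows, edgeR called none and DESeq2 called 1. At the Nab1 start in C57 it was 334.1 and 332.0 normalized tags basally and 213.9 and 217.7 at 24 h (log2 fold -0.62 ± 0.13, SE, n = 2, adjusted p 0.19 by limma), and in PWK 373.1 and 466.1 and then 177.2 and 245.7 (-1.0 ± 0.31, adjusted p 0.77). At the Nab2 start in C57 it was 261.3 and 256.9 and then 152.8 and 186.5 (-0.62, adjusted p 0.19). The treated libraries were the lower ones in these 3 cases. The Egr1 start in C57 had 140.5 and 165.8 and then 144.2 and 143.6, with the treated values inside the basal range.

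H3K4me2 was called at 2 member rows, both in NOD and both higher, against 0.167% of 68932 rows. Egr1 +23.7 kb had 3.64 and 5.22 normalized tags basally and 17.3 and 26.7 at 24 h (log2 fold 2.07, adjusted p 0.032 by limma), and Nab1 +30.3 kb had 7.27 and 6.09 and then 26.57 and 26.04 (1.83, adjusted p 0.046). Both lie next to the distal regions described above, and at both the treated libraries exceeded the basal ones. Each call was lost without either treated library, and that of Nab1 also without basal replicate 2, with relative log2 folds between 2.02 and 2.69 at Egr1 and between 1.84 and 2.43 at Nab1. Neither was called with median-ratio scaling or by DESeq2.

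In the C57 time course, with tags scaled to library totals, the lower values appeared by 1 h and the higher ones from 6 h. At 1 h of IL-4, 20 of the 55 member rows were called lower for H3K27ac (limma), against 8.36% of 77955 rows. Of these, 13 were among the 21 rows within 50 kb of the Nab2 start and 7 among the 18 rows of Egr3. Their log2 folds ran from -3.06 to -1.85, and none was near Egr1 or Nab1. The Nab2 window also holds the starts of Lrp1, Stat6 and Nemp1, and the Egr3 window that of Bin3. Rows counted here may belong to those genes. The 1 h libraries had 44.0% and 20.5% of their tags inside the regions, against 63.8% and 69.7% basally, and the median row of the table was at -0.63. With median-ratio scaling, which moved that median by 0.72, only 4 member rows were called lower at 1 h. The number of calls at 1 h thus depended on the scaling, and the share of all rows called in the scaled fit is not given here.

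The distal region of Nab2 had 483.0 and 386.5 normalized tags of H3K27ac basally, 114.4 and 88.8 at 1 h, 149.4 and 174.7 at 6 h, and 129.9 and 116.2 at 24 h (1 h log2 fold -2.09, adjusted p 0.027). It was below both basal libraries at every later time. The Nab2 start had 555.6 and 426.4, then 151.5 and 115.7, 221.0 and 335.3, and 241.1 and 256.6 (1 h -1.87, adjusted p 0.042), with later values between those of 1 h and basal. The distal region of Egr3 had 412.5 and 248.8, then 124.5 and 56.5, 142.5 and 152.1, and 127.3 and 67.6 (1 h -1.92, adjusted p 0.047), below basal at every time. The distal region of Egr1 had 91.6 and 27.1, then 116.0 and 26.9, 154.8 and 240.4, and 241.9 and 201.5. One 1 h library was above and one just below both basal ones, and from 6 h all were above. The distal region of Nab1 had 10.9 and 6.42, then 20.9 and 8.26, 23.1 and 27.99, and 28.01 and 56.44 (24 h log2 fold 2.12, adjusted p 0.091), and was likewise apart from basal from 6 h. The basal and 24 h libraries are those of the C57 strain comparison, so these values are no second support for it.

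**Figure D4:**
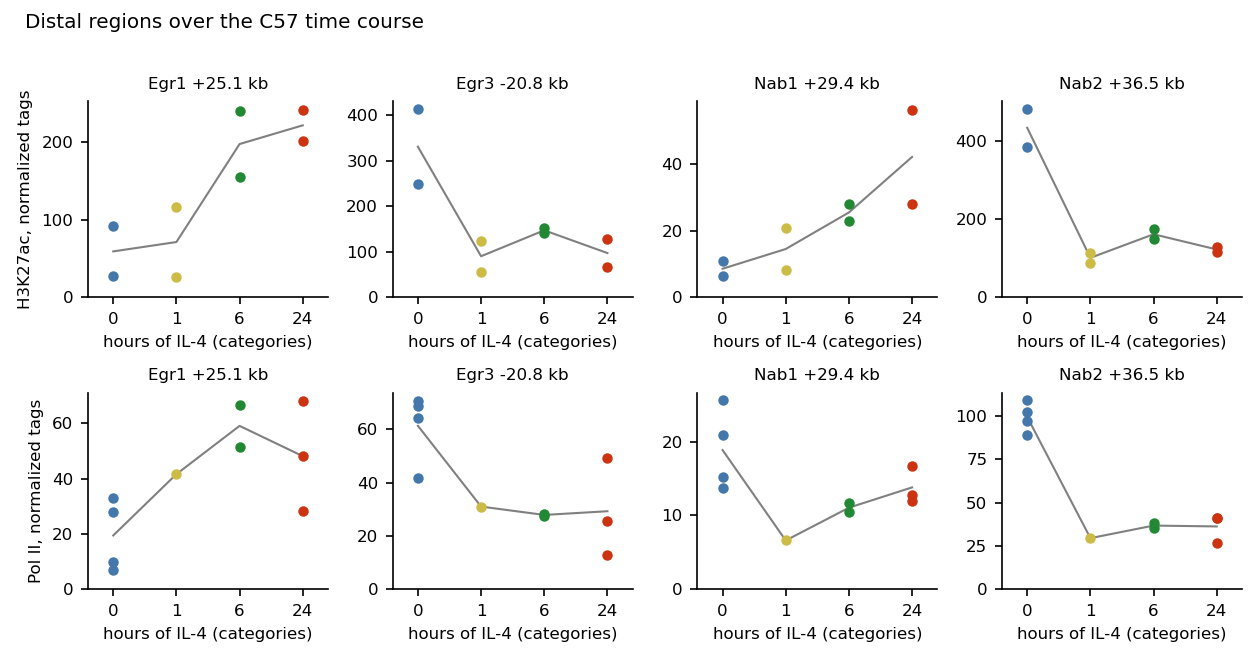
H3K27ac (top) and Pol II (bottom) in normalized tags at the distal region of each gene over hours of IL-4 in C57, with a point per library and a grey line joining the means. Nab2 and Egr3 are lower in H3K27ac from 1 h, and Egr1 and Nab1 are above both basal libraries from 6 h. Pol II at 1 h has 1 library.

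Few rows were called at the later times. At 6 h only Nab2 +33.3 kb was called, lower, against 2.46% of rows. It had 149.2 and 231.7 normalized tags of H3K27ac basally, 16.2 and 28.2 at 1 h, 18.5 and 26.8 at 6 h, and 21.2 and 47.3 at 24 h. All treated libraries were below both basal ones, with log2 folds of -3.06, -3.01 and -2.51 and adjusted p of 0.012, 0.0070 and 0.037 at 1, 6 and 24 h. At 24 h that row was the only member row lower (0.327% of all rows), and 2 member rows were higher (1.13% of all rows). Egr1 +23.7 kb had 4.07 and 2.14 basally, 3.87 and 8.26 at 1 h, 13.1 and 19.5 at 6 h, and 17.8 and 31.5 at 24 h (24 h 2.63 ± 0.62, adjusted p 0.040). Nab1 +30.3 kb had 3.39 and 3.57, then 3.09 and 4.82, 15.4 and 13.4, and 22.1 and 31.5 (24 h 2.61 ± 0.59, adjusted p 0.030). At both, the 6 and 24 h libraries exceeded all basal and 1 h ones. The 24 h calls were lost when any basal, 6 h or 24 h library was left out, except Egr1 +23.7 kb without basal replicate 1, and relative log2 folds then ran from 2.39 to 3.30 at Egr1, 2.52 to 3.13 at Nab1 and -2.92 to -1.68 at Nab2. The 6 h call at Nab2 was lost without either 6 h library or basal replicate 2 (relative log2 fold -3.25 to -2.46).

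Pol II was also lower at Nab2 and Egr3 regions. Nab2 +36.5 kb had 89.2, 97.1, 109.3 and 102.3 normalized tags basally, 29.5 in the single 1 h library, 38.3 and 35.1 at 6 h, and 26.7, 41.0 and 41.0 at 24 h, and every treated library was below every basal one. Its log2 fold at 24 h was -1.46 ± 0.32 (adjusted p 0.046). Egr3 -0.3 kb had 6.24, 12.84, 15.01 and 13.16 basally, 4.57 at 1 h, 1.10 and 1.95 at 6 h, and 2.67, 0.91 and 0.00 at 24 h (-2.68 ± 0.53, adjusted p 0.027). These were the 2 member rows called at 24 h, against 0.174% of all rows. At 6 h, Nab2 +33.3 kb was called (11.9, 20.9, 27.9 and 39.5 basally, 3.55 at 1 h, 3.83 and 1.46 at 6 h, and 9.34, 3.64 and 11.5 at 24 h, log2 fold at 6 h -2.80, adjusted p 0.036), against 0.137% of rows. Treated libraries were below all basal ones in all 3 regions. With single libraries left out, the calls were lost in 8 of 10 cases at Nab2 +36.5 kb (any 6 or 24 h library or basal replicate 2, 3 or 4), 6 of 10 at Egr3 -0.3 kb (any 24 h library or basal replicate 2, 3 or 4) and 6 of 10 at Nab2 +33.3 kb (24 h replicate 1, either 6 h library or basal replicate 2, 3 or 4), with relative log2 folds from -1.62 to -1.20, -3.10 to -2.28 and -3.35 to -2.21. Egr1 +25.1 kb had 28.1, 32.9, 9.65 and 7.09 basally, 41.6 at 1 h, 51.5 and 66.8 at 6 h, and 68.0, 48.2 and 28.2 at 24 h, above basal at 1 and 6 h and overlapping it at 24 h (adjusted p 0.25).

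Deletion of Egr2 was examined at 4677 sites that the authors had selected as EGR2 peaks induced by IL-4 at 24 h, and each of the 4 genes had 1 of them within 50 kb. The region of the Egr2 gene itself in these tables, at +3.7 kb, had 152.8 and 197.8 normalized tags of H3K27ac at 24 h in Egr2flfl and 161.0 and 143.4 in LyzMCreEgr2flfl, against 50.3 and 38.0 and 38.1 and 27.5 basally. It is not stated whether this region lies in the deleted segment, so these values do not check the deletion. Since the sites were selected for EGR2 induction, a rise at them after IL-4 is not independent of that choice.

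The Egr1 site, at +25.2 kb and overlapping the distal region described above, had less H3K27ac in LyzMCreEgr2flfl after IL-4. It had 56.2 and 62.5 normalized tags basally and 230.2 and 224.2 at 24 h in Egr2flfl, and 35.1 and 38.7 and then 98.7 and 81.3 in LyzMCreEgr2flfl. Both IL-4-treated LyzMCreEgr2flfl libraries lay between the basal and treated Egr2flfl ones. The genotype difference at 24 h was -1.33 ± 0.22 on the log2 scale (SE, n = 2, adjusted p 0.000754 by limma), and 23.2% of all sites were called lower in this comparison. The median site was at -0.50, so that the difference less the median was -0.83. It was -0.67 basally (adjusted p 0.23). IL-4 raised the mark in Egr2flfl by 1.92 (adjusted p 1.44e-05, 25.6% of sites called higher) and in LyzMCreEgr2flfl by 1.26 (adjusted p 0.000681, 14.4% called higher). The difference between these responses, tested as an interaction, was -0.66 ± 0.32 with an adjusted p of 0.39. The 3 calls held in all 14 alternatives, and with 1 library left out the genotype difference less the median lay between -1.0 and -0.67.

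Of the other signals at this site, PU1 alone was called between the genotypes. Pol II, with 1 library for each group and so no test, had 17.5 basally and 59.6 at 24 h in Egr2flfl and 13.65 and 15.97 in LyzMCreEgr2flfl. STAT6 had 0.00 and 2.39 and then 22.4 and 19.5 in Egr2flfl, and 2.23 and 4.59 and then 3.09 and 4.51 in LyzMCreEgr2flfl. Only the treated Egr2flfl libraries stood above 5. The rise in Egr2flfl was called (log2 fold 3.57, adjusted p 0.0026, 11.8% of sites called higher), and it was lost with median-ratio scaling and without either treated Egr2flfl library (relative log2 fold 1.4 to 3.66 with 1 library left out). The genotype difference at 24 h was -2.21 ± 0.76 (adjusted p 0.19) and the interaction -3.41 ± 1.07 (adjusted p 0.41). PU1 had 13.7 and 15.5 at 24 h in Egr2flfl against 3.34 and 5.05 in LyzMCreEgr2flfl, after 6.80 and 7.82 and 12.5 and 6.50 basally. That difference was called at -1.60 ± 0.47 (adjusted p 0.041, 9.36% of sites called lower), and was lost without any 1 of the 24 h libraries or either basal Egr2flfl library, with -1.50 to -1.06 less the median. CEBPb had 19.4 and 15.4 against 8.14 and 21.5, which overlap. PPARg had 16.4 and 3.15 against 1.39 and 9.04, which overlap too.

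**Figure D5:**
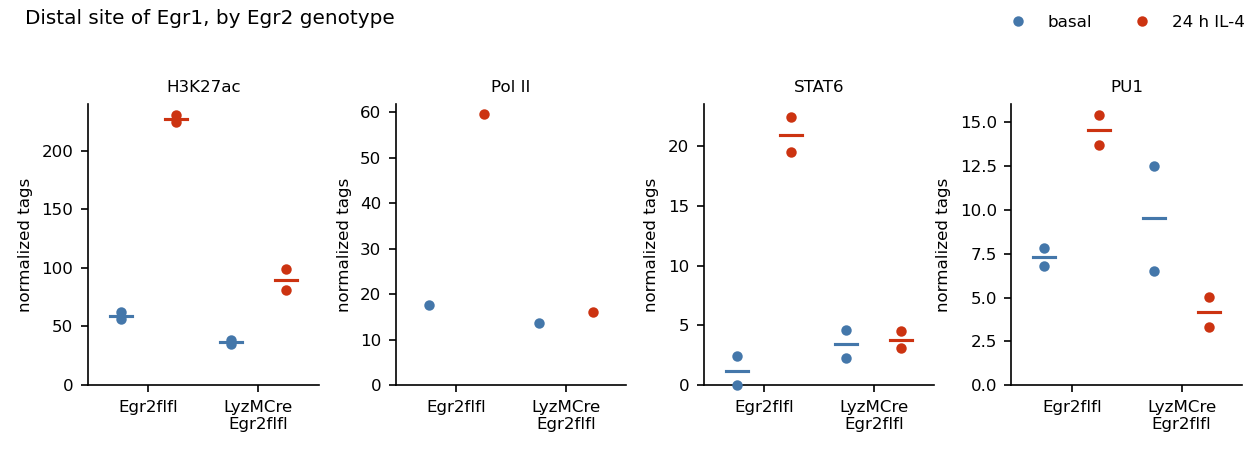
Normalized tags of H3K27ac, Pol II, STAT6 and PU1 at the Egr1 +25.2 kb site by Egr2 genotype, with a point per library and a bar at the mean of 2, except for Pol II, which has 1 library per group and no bar (blue basal, red 24 h of IL-4). The treated Egr2flfl points are the highest in each panel, with H3K27ac at 224.2 and 230.2 there against 81.3 and 98.7 in treated LyzMCreEgr2flfl.

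The Egr3 site, at -14.8 kb, fell with IL-4 in both genotypes, to much the same level. H3K27ac was 288.9 and 296.6 basally and 167.9 and 169.6 at 24 h in Egr2flfl, and 279.8 and 308.9 and then 145.5 and 190.9 in LyzMCreEgr2flfl. Treated libraries were below basal ones in both. The log2 folds were -0.79 ± 0.20 (adjusted p 0.0071, 2.54% of sites called lower) and -0.81 ± 0.20 (adjusted p 0.0077, 4.08% called lower). The genotype difference at 24 h was -0.02 ± 0.20 (adjusted p 0.96). The call in LyzMCreEgr2flfl was lost without its first treated or its second basal library (relative log2 fold -1.12 to -0.82). PU1 was strong here, at 92.1 to 128.1 in all 8 libraries with no call. PPARg had 1.82 and 3.04 and then 25.6 and 41.0 in Egr2flfl, against 11.7 and 6.18 and then 15.3 and 9.04 in LyzMCreEgr2flfl (IL-4 in Egr2flfl 3.31, adjusted p 0.11). The treated Egr2flfl pair was the highest of the 4 and the basal Egr2flfl pair the lowest, both clear of the other libraries.

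The Nab2 site, at +49.2 kb and nearest the start of Lrp1, which encodes an endocytic receptor, had 237.7 and 289.8 normalized tags of H3K27ac basally and 205.0 and 284.5 at 24 h in Egr2flfl. In LyzMCreEgr2flfl it had 243.7 and 298.8 and then 159.0 and 184.0, the lowest pair of the 4 (IL-4 log2 fold -0.65 ± 0.22, adjusted p 0.046, lost without any of the 4 libraries of that genotype, with -0.92 to -0.66 less the median over all omissions). CEBPb there had 20.6 and 11.4 at 24 h in Egr2flfl and 0.00 and 1.07 in LyzMCreEgr2flfl, after 5.21 and 7.35 and 4.36 and 7.22 basally. The difference at 24 h was called at -3.50 ± 1.02 (adjusted p 0.021, 8.25% of sites called lower), with the median site at -1.14, and was lost without any 1 of the 24 h libraries (-2.86 to -1.89 less the median), with edgeR and with DESeq2. The Nab1 site, at +39.7 kb, had 0.00 to 6.42 normalized tags of H3K27ac in the 8 libraries and no call. H3K4me2 gave no genotype call at any of the 4 sites.

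Genes tied to the same pathway were read at their starts from lists. Egr2 rose in H3K27ac in BALB (4.52 and 19.7 normalized tags on average, log2 fold 1.92, adjusted p 0.039), where 866 of 54022 rows were called higher. It also rose in Pol II in PWK (11.4 and 52.6, 2.15, adjusted p 0.0080) and SPRET (14.9 and 45.4, 1.53, adjusted p 0.033). For Pol II, 868 of 60175 rows were called higher in PWK and 428 of 54755 in SPRET. Of the 4 EGR genes, 3 had a start region, and Egr4 had none in these strains. Of 14 serum-response and immediate-early genes, 11 to 13 had a start region and none was called in any strain for either mark. For H3K27ac, 1 of them was lower by the 2.5-fold rule in BALB, 3 in C57 and 1 in NOD, where 5.13%, 7.55% and 5.14% of all rows were, and for Pol II 2 of 13 were higher in BALB (5.91% of all rows). Of 11 genes of the NuRD complex, 9 to 11 had a start region, and none was called or passed the fold rule for H3K27ac or Pol II.

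Across the 8 H3K27ac libraries of the C57 time course, many other starts followed the members. The start of Egr1 was most like those of Wls (Pearson r 0.992), Rpl13a (0.992) and Mcat (0.991), that of Nab2 most like Myo1f (0.994), Sptssa (0.991) and Dhx34 (0.990). For Nab1 the first place was shared by 3 genes on 1 row, 1810009A15Rik, Gm49416 and Mir5136 (0.981). Of 12096 gene starts, 2228 had an r over 0.9 with Egr1, 837 with Nab1 and 1170 with Nab2. The points share libraries and the share of tags inside regions, and Egr3 had too little H3K27ac at its start (a mean of 3.49 normalized tags) to be compared.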

How the data were processed

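Bone marrow-derived macrophages were profiled by ChIP-seq for 5 factors (CEBPb, PU1, PPARg, STAT6, EGR2), Pol II and 3 histone marks (H3K4me3, H3K4me2, H3K27ac). The authors aligned reads with Bowtie2 to strain genomes, moved them to mm10, and counted tags with HOMER. The deposited signal is the number of tags in a region (1000 bp for histone marks and Pol II, 300 bp for the factors of the genotype tables, and the peak itself for the EGR2 time course) scaled to a library of 10000000. Rows of the strain tables are merged ATAC-seq peaks. The deposited peak lists carry a score and a height, called across replicates by the authors, 1 list per group.

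Replicates were grouped as labelled, and 4 Pol II columns matching no sample were not used. Log2(signal + 1) was fitted with limma 3.58.1 (R 4.3.3, trend) on each whole table, with Benjamini-Hochberg adjustment and a call at an adjusted p under 0.05, two-sided. Of 4307536 low values, 100% came out as whole reads, on which edgeR 4.0.16 and DESeq2 1.42.0 were run. The other alternatives were a pseudocount of 5, a filter at a mean of 16 (8 for Pol II), median-ratio scaling, leaving out each library, a replicate block and a 10 kb window. Scripts were tested on simulated data. Totals of 4691644 to 29050468 tags limit precision at low regions.

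Named regions were the row nearest the start (within 1000 bp), the distal row, the nearest and highest EGR2 sites, rows called where a comparison had at most 5, and the genotype row nearest the start. The Egr3 region 1.3 to 1.4 kb upstream was shown in every strain, and the Egr3 region at -20.0 kb in PWK and SPRET, after the values were seen. Same-numbered Pol II libraries correlated in their deviations in C57 (r 0.191 to 0.395), PWK (0.438 to 0.631) and SPRET (0.414 to 0.442), which was taken as pairing from the data. Those of H3K27ac (0.507 to 0.729), of H3K4me2 and H3K4me3 (0.211 to 0.732) and of Pol II in NOD and BALB (0.39 to 0.561) correlated as well. These were read as unpaired outside the list of alternatives. Sequences are from mm10 and RefSeq (GRCm38.p6), for which Egr1 and Egr3 had no promoter entry. The members and gene lists were chosen with earlier results of these data known.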

Additional observations from a re-analysis of the deposited data

How the results depend on the processing

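Of 691 alternatives for 62 single regions, 520 kept direction and side of the threshold, 131 lost a call or weakened, 20 gained one and 20 reversed. The counts of member calls that follow come without the share of all rows called under the same setting. They therefore do not set the members apart from other rows. Such shares were given above only for Pol II with the block. Member calls for H3K27ac in the strains (3) became 17 with DESeq2, 1 with edgeR, 82 with the replicate block, 1 within 10 kb and 0 to 14 without 1 library. Pol II in the strains (5) gave 26 with the block, 3 within 10 kb and 1 to 5. H3K4me2 (2) gave 24 with DESeq2, 1 with edgeR, 0 with the filter, 1 with median-ratio scaling, 26 with the block, 0 within 10 kb and 0 to 40. H3K4me3 (0) gave 1 with DESeq2, 25 with the block and 0 to 0. The H3K27ac time course (24) gave 39 with DESeq2, 14 with median-ratio scaling, 61 with the block, 4 within 10 kb and 0 to 51, and that of Pol II (3) gave 12, 7 with the block, 1 within 10 kb and 0 to 10. EGR2 (0) gave 0 to 5. Between genotypes, H3K27ac (1) gave 2 with median-ratio scaling and 2 with the block, and STAT6 (0) gave 1 with a pseudocount of 5 and 1 with the block. PU1 (1) gave 0 with DESeq2 or the filter and 0 to 1, and CEBPb (1) gave 0 with DESeq2, edgeR, the filter or median-ratio scaling and 0 to 1. The 1386 peaks became 439 within 10 kb and 910 in the better-scored part of each list. Where 2 pairs share only a number the block is a hint, not the design. Start regions of H3K27ac reversed in relative log2 fold without 1 library at Nab1 in C57 (-0.26, range -0.71 to 0.18, 0.0892 with the filter) and PWK (0.02, -0.19 to 0.23, -0.0117 with a pseudocount of 5). So did Egr1 in C57 (-0.16, -0.36 to 0.0426, 0.19 with the filter), PWK (-0.48, -1.16 to 0.15) and SPRET (0.02, -0.53 to 0.53), and Egr3 in C57 (-0.57, -1.51 to 0.36), NOD (-0.06, -0.89 to 0.76) and SPRET (0.17, -0.69 to 1.00). With the distal region chosen on basal libraries, an alternative added after seeing the data, Egr1 reversed in C57 (2.35 to -1.81), BALB (1.60 to -1.53) and NOD (1.74 to -1.26), as another region is read. The cause of the other reversals was not tested.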
